A study of Homo sapiens with 3 samples.

Results

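GDF15 (growth differentiation factor 15, ENSG00000130513), a stress-induced cytokine, was 1 of the 33538 genes counted, and its transcripts were followed in 5 populations of HCT116 colorectal cancer cells. The gene was chosen by name and the populations by treatment and antibody hashtag. No level of GDF15 entered that rule, but gene and populations were chosen with earlier results of these data known. They held 810 non-irradiated cells (NC), 633 repopulated cells (R), 6322 weakly tagged irradiated cells (weak IR), 2216 strongly tagged irradiated cells (strong IR) and 15630 cells of a library of irradiated cells only (Mix1).

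HCT116 is an established colorectal cancer line, and every population carried the genotype that the labels give as p53plus. NC received no irradiation and carried tag6, and R had regrown after 8 Gy and carried tag7. IR was grown from giant radiation-tolerant persister (RTP) cells isolated after 8 Gy and carried tag8. These 3 populations were loaded together as Mix2, as 1000 NC, 1000 R and 10000 IR cells, with antibody hashtags that bind the cell surface. IR and Mix1 each pooled 4 preparations of giant cells, isolated on day 5 or day 8 and kept in culture until day 10 or day 11, and the preparations carried no mark of their own. A cell entered NC, R or strong IR when the count of its own tag passed a fixed limit, and weak IR when its tag8 count lay between 500 and the limit of strong IR, each with its own tag at 80% or more of the 3 tags. The median own-tag count was 1626 in NC, 1345 in R, 1323 in weak IR and 7438 in strong IR. The study gives no reason for a split of IR by tag8, so that strong and weak IR are ranges of a tag count and not labelled groups. Each population came from 1 library, so no value below has a replicate and no test was made. All 95% intervals (exact Poisson, conditional binomial or Clopper-Pearson) cover counting error only.

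GDF15 is a distant member of the TGF-beta family that is secreted by stressed epithelial and other cells and acts on its receptor GFRAL, found in the hindbrain, together with the co-receptor RET. Its transcription is known to answer to 2 stress pathways. The tumour suppressor p53 induces it after DNA damage, beside the cell cycle inhibitor CDKN1A, and ATF4 with its partner CHOP (encoded by DDIT3) induces it in the integrated stress response, beside genes of amino acid synthesis and transport. Whether GDF15 followed p53 targets or ATF4 targets from cell to cell was the question put to the counts.

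In GRCh38 the gene lies on the plus strand of chromosome 19, at 18374731 to 18389176 in GENCODE 44, between PGPEP1 and LRRC25. The MANE Select transcript runs from 18386158 to 18389176 in 2 exons, and the microRNA gene MIR3189 lies in its intron at 18386562 to 18386634. The 250 bases before the transcript start (RefSeq, GRCh38.p14, chr19:18385908-18386157, plus strand) are shown because they hold the core promoter. Capitals mark 2 GC boxes (GGGCGG or its reverse complement CCGCCC) and a TATA box (TATAAA) that starts 29 bases before the transcript.
GDF15 upstream: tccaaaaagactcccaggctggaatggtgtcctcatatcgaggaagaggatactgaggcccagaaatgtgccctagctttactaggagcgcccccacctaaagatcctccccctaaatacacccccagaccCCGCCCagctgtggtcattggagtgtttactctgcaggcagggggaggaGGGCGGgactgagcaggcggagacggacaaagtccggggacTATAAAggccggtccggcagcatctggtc
Of 35116 RefSeq promoters searched over the same 250 bases, 6.80% held this TATA box on the plus strand and 42.6% held a GC box on either strand. A pair of p53 core letters, C(A/T)(A/T)G repeated after 6 bases, was found once in the window that ran to 50 bases past the start. It is shown because it is the kind of short match a p53 response element contains, with the paired cores in capitals (chr19:18386186-18386205, plus strand).
GDF15 p53 core pair: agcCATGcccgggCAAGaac
The first core starts at base 32 of the transcript and overlaps the start codon, whose first base is base 33. Such a pair occurred in 4.79% of all promoters, and for 8 of 38 genes of the p53 list and 1 of 29 of the ATF4 list described below. A listed gene counted when any of its promoters matched, so these shares are in another unit than the percentages of promoters. The element bound by ATF4 with C/EBP proteins, TGATGNAA on either strand, occurred in 3.62% of all promoters and for 9 of 29 genes of the ATF4 list. It had 0 matches in the 300 bases of GDF15, as had TGACGTCA (1.85% of promoters) and TGANTCA (7.71%). These matches describe letters only.

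Mix1 held 17019 cell barcodes with 159242469 gene UMIs (unique molecular identifiers, each standing for 1 captured transcript), and Mix2 held 13888 barcodes with 107393576. A limit of 200 genes and 10% mitochondrial UMIs kept 15630 and 11652 cells, and the libraries shared 59 barcodes. The median cell had 7160 UMIs in NC, 6933 in R, 7216 in weak IR, 11862 in strong IR and 8996 in Mix1. NC and R cells carried a median of 121 tag8 counts beside their own tag. Epithelial markers were present in every population, with KRT18 at 1284 to 2362 counts per 1e6 gene UMIs (CPM) and EPCAM at 264 to 400 CPM. Summed markers of fibroblasts, immune, endothelial, erythroid and trophoblast cells reached at most 3.21 CPM for any list, and all 5 lists were at 0 or near it in each population.

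GDF15 was expressed in all populations and was highest in strong IR. Its level was 315 CPM in NC (interval 301 to 329, 1922 UMIs), 331 in R (315 to 348, 1568 UMIs), 414 in weak IR (408 to 420, 19444 UMIs), 815 in Mix1 (810 to 819, 122757 UMIs) and 1004 in strong IR (992 to 1016, 27233 UMIs). NC and R were neighbours that did not differ beyond counting error, and each later step in this order did. R stood at 1.05 times NC (interval 0.984 to 1.13), weak IR at 1.31 times (1.25 to 1.38) and strong IR at 3.19 times (3.04 to 3.34). Strong IR was 2.43 times weak IR (2.38 to 2.47) within the same library, and Mix1 was 2.59 times NC (2.47 to 2.71) and 0.812 times strong IR, between libraries whose preparation and sequencing cannot be told apart from the cells. The median log2 ratio to NC over all genes measured was -0.04 in R, -0.03 in weak IR and -0.11 in strong IR, against 0.07, 0.39 and 1.67 for GDF15.

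**Figure D1:**
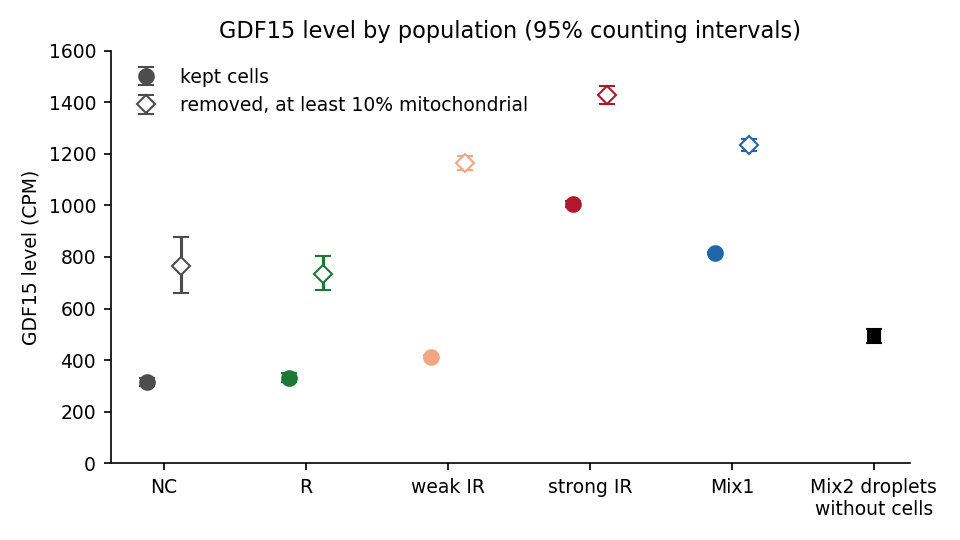
GDF15 level in CPM (vertical axis) by population, with 95% counting intervals; filled points are kept cells, open diamonds are barcodes with at least 10% mitochondrial UMIs and the square is the pool of droplets without cells. Kept cells ran from 315 CPM in NC to 1004 CPM in strong IR, and the removed barcodes lay above the kept cells in each population.

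The level in R depended on which cells were counted. With at least 1000 genes and under 5% mitochondrial UMIs, R stood at 663 CPM (564 to 774), but only 29 cells (4.58% of R) met these limits, and the ratio to NC was 2.35. With its own tag at 95% or more of the tags R stood at 580 CPM in 44 cells, 1.70 times NC. Leaving out the 5% of cells with the most UMIs gave 0.949 times NC, and weighting each cell equally gave 0.972 times. The direction between R and NC was therefore not fixed by these counts.

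Most cells held few GDF15 transcripts and a minority held many. The median cell had 1 UMI in NC and R, 2 in weak IR, 4 in Mix1 and 9 in strong IR, and the highest single cell had 51, 48, 99, 181 and 146. No UMI was found in 24.7% of NC cells, 30.2% of R, 22.2% of weak IR, 7.34% of Mix1 and 4.15% of strong IR. Because the median depth differed between populations, each cell was thinned to 5000 UMIs, and shallower cells were left out (111 of NC, 96 of R, 1099 of weak IR, 150 of strong IR and 4963 of Mix1). At this even depth the share without a UMI was 33.2% in NC (29.7 to 36.8), 39.9% in R (35.7 to 44.1), 34.9% in weak IR (33.6 to 36.2), 18.1% in Mix1 (17.3 to 18.8) and 10.1% in strong IR (8.80 to 11.5). These shares follow the depth chosen, since at 8000 UMIs they were 24.8% in NC and 5.21% in strong IR. No cell type in the libraries should lack GDF15, so no share from such cells could be set beside them. Droplets of Mix2 with at most 100 UMIs, which hold free RNA, carried GDF15 at 493 CPM (467 to 519).

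The populations also differed at the upper end of the distribution. At least 5 UMIs per 5000 were found in 5.72% of NC cells (4.12 to 7.71), 7.64% of R (5.53 to 10.2), 9.73% of weak IR (8.94 to 10.6), 28.4% of Mix1 (27.5 to 29.2) and 43.95% of strong IR (41.8 to 46.1). The intervals of NC and R overlapped, while weak IR lay above NC although both had about the same share of cells without a UMI. Cells with at least 6 UMIs per 5000, a limit set after the values were seen, numbered 29 in NC, 34 in R, 373 in weak IR, 736 in strong IR and 2372 in Mix1. In weak IR they were 7.14% of cells and held 38.8% of all GDF15 UMIs, in R 6.33% and 40.3%, and in strong IR 35.6% and 71.8%. Without these cells, weak IR stood at 0.993 times NC, R at 0.814 times, Mix1 at 1.49 times and strong IR at 1.87 times. Without its high cells weak IR was level with NC, whereas strong IR stayed above it, and since these cells were picked by GDF15 itself the ratios are a description only. Variance over mean was 3.02 in NC, 4.58 in R, 5.03 in weak IR, 5.57 in strong IR and 5.70 in Mix1 at 5000 UMIs, where counting alone would give 1.

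**Figure D2:**
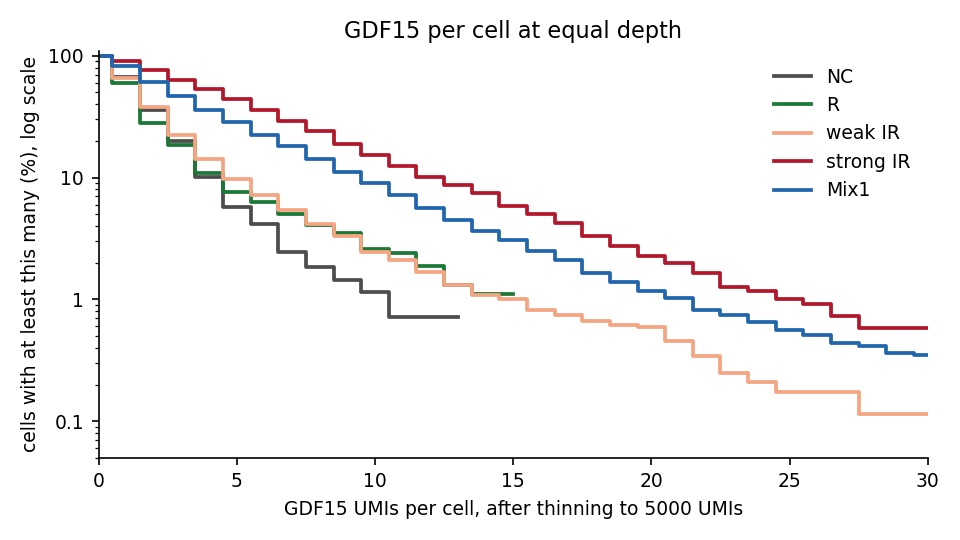
Percent of cells (vertical axis, log scale) with at least the number of GDF15 UMIs per 5000 given on the horizontal axis, 1 line per population, in cells thinned to 5000 UMIs. At 5 UMIs the lines stand at 5.72% for NC, 7.64% for R, 9.73% for weak IR, 28.4% for Mix1 and 43.95% for strong IR.

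Depth and tag count moved with GDF15 in some populations. Among cells of 5000 to 10000 UMIs GDF15 stood at 304 CPM in NC, 293 in R, 364 in weak IR, 663 in Mix1 and 1192 in strong IR. Along quartiles of total UMIs, from the shallowest to the deepest, weak IR gave 666, 371, 364 and 393 CPM and Mix1 gave 1312, 745, 655 and 872 CPM. The shallowest quartile was thus the highest in both, whereas NC (313, 297, 313 and 328 CPM) showed no such step. In R the shallowest quartile was lower than the deepest (259 and 395 CPM), and in strong IR it was higher (1137 and 895 CPM). In those shallow cells CDKN1A was also higher than in the other quartiles, 1.67 times in weak IR and 1.39 times in Mix1. Irradiated cells with 5000 to 10000 UMIs were also placed in 6 bins of rising tag8 count, 3 from weak IR and 3 from strong IR, and GDF15 stood there at 312, 347, 482, 1141, 1732 and 916 CPM. The level did not keep climbing with the tag, and the most strongly tagged cells lay below the bin before them.

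Genes that followed GDF15 from cell to cell were sought by Spearman's rank correlation (rho) within each population, in cells thinned to 5000 UMIs, over 3012 genes with at least 50 CPM in some population. The cells of a population share 1 library and 1 depth, so rho is a description of that library. A rho of at least 0.1 was reached by 28 genes in NC (0.93% of those compared, 699 cells), 68 in R (2.26%, 537 cells), 36 in weak IR (1.2%, 5223 cells), 207 in strong IR (6.87%, 2066 cells) and 246 in Mix1 (8.17%, 10667 cells). In all 5 it was reached by 6 genes, or 0.199% of those compared, namely CDKN1A, FTH1, RPS27L, SAT1, NEAT1 and AREG. The counts depended on depth, since at 8000 UMIs per cell NC had 143 genes and R had 253, while at 3000 UMIs only 1 gene reached the limit in all 5.

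CDKN1A, the p53-induced inhibitor of cyclin-dependent kinases, followed GDF15 most closely. Its rho was 0.16 in NC, 0.21 in R, 0.26 in weak IR, 0.43 in strong IR and 0.49 in Mix1, the highest of all genes in 4 populations and the third in R. Mean rho over the 5 populations was 0.31 for CDKN1A, 0.25 for the calcium-binding protein S100A6, 0.23 for SFN (14-3-3 sigma, a p53-induced checkpoint protein), 0.23 for the ferritin heavy chain FTH1 and 0.21 for the simple-epithelial keratin KRT19. Next came RPS27L, a p53-induced ribosomal protein homologue (0.19), the AP-1 subunit JUND (0.19), the phosphohistidine phosphatase PHPT1 (0.18), the polyamine acetyltransferase SAT1 (0.18) and the F-box protein FBXO2 (0.18). For KRT19 and SFN no such relation was detected in NC (-0.010 and 0.043), and a clear one was found in strong IR (0.42 and 0.42). GDF15 averaged 1.55 UMIs per thinned cell in NC and 5.25 in strong IR, and the highest rho of any gene in NC was 0.16. In NC the next after CDKN1A were ID1, a helix-loop-helix inhibitor (0.15), and FXYD3, a regulator of the sodium pump (0.15), of which ID1 had -0.013 in R. CDKN1A had the highest mean rho under each other way of computing it except with at least 1000 genes and under 5% mitochondrial UMIs, where it was the second. FTH1, RPS27L, PTMA and HMGB1 have near-identical processed pseudogenes, so their counts are less certain than those of CDKN1A.

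Genes of the cell cycle were among those that ran against GDF15. A rho of -0.1 or lower was found for 1.63% of genes in NC, 4.52% in R, 2.76% in weak IR, 11.5% in strong IR and 19.2% in Mix1. The lowest mean rho belonged to the histone variant H2AFZ (-0.26), the chromatin protein HMGB1 (-0.25), the chaperone HSP90AB1 (-0.22), cyclin B1 (CCNB1, -0.22) and prothymosin alpha (PTMA, -0.22). PTMA and HMGB1 stood near 0 in NC (0.011 and -0.020), at -0.14 and -0.18 in R and at -0.34 and -0.38 in strong IR. MKI67, a marker of cycling cells, had -0.051 in NC and -0.31 in strong IR. Of 33 measured genes of the G2 and M phases, 5 lay at -0.1 or lower in NC, 14 in R, 20 in weak IR, 33 in strong IR and 33 in Mix1. Of 21 genes of S phase the numbers were 0, 3, 1, 18 and 20.

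GDF15 was lowest where mitotic transcripts were highest. In strong IR it went from 1419 CPM in the tertile of cells with the lowest summed G2 and M level to 1070 and 599 CPM in the next tertiles, and in Mix1 from 1330 to 760 and 389 CPM. The same order held in weak IR (784, 322 and 233 CPM), in R (483, 330 and 210 CPM) and, with a smaller step, in NC (372, 318 and 267 CPM).

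Some p53 targets followed GDF15 in each population. Of 49 p53 targets listed, 18 had 50 CPM and were compared. Those with a rho of at least 0.1 numbered 3 in NC, 5 in R, 6 in weak IR, 11 in strong IR and 13 in Mix1, shares of the list that lie above the percentages of all genes given above. Median rho of the 18 was 0.043, 0.035, 0.071, 0.108 and 0.142 in the same order, against -0.006, -0.012, -0.013, -0.012 and -0.031 over all genes. Beside CDKN1A, SFN and RPS27L, the highest were the oxidoreductase TP53I3, with rho 0.048 in NC and 0.32 in strong IR, the ferredoxin reductase FDXR (0.12 and 0.17) and the AKT inhibitor PHLDA3 (0.054 and 0.095). MDM2, the ubiquitin ligase that degrades p53, had 0.043 in NC and 0.11 in strong IR. ASCC3, a helicase of DNA alkylation repair, was the member that lay lowest, at a mean of -0.013. Down to 10 CPM, 37 members could be compared, of which 3, 6, 8, 20 and 21 reached 0.1. The order of the populations depended on the measure, since with Pearson residuals in place of thinned ranks the numbers out of 18 were 4, 12, 14, 12 and 14, and CDKN1A had 0.45 in NC, 0.62 in R, 0.52 in weak IR, 0.41 in strong IR and 0.44 in Mix1. Differences in rho between populations were not tested.

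The ATF4 targets as a group did not follow GDF15. Of 37 listed 15 could be compared, and 0 had a rho of at least 0.1 in any of the 5 populations. Their median rho was 0.020 in NC, 0.010 in R, -0.011 in weak IR, -0.024 in strong IR and -0.042 in Mix1, close to that of all genes. The highest mean belonged to the amino acid transporter SLC38A2 (0.039) and the secreted glycoprotein STC2 (0.026). MTHFD2, a mitochondrial folate enzyme and the most abundant member in NC (291 CPM), lay lowest, at -0.106 in strong IR and -0.110 in Mix1, and the asparagine synthetase ASNS stood at -0.051 and -0.056. The next most abundant members were EIF4EBP1, a translation inhibitor, with a mean of -0.022, and the amino acid transporters SLC1A5 (-0.016) and SLC3A2 (0.011). With 10 CPM as the limit 26 members could be compared and the number at 0.1 was again 0 in each population. Under other settings it reached at most 3 in NC and 2 in R, the 2 in R resting on 24 cells. It stayed at 0 in weak IR, strong IR and Mix1. DDIT3, which encodes CHOP, had the highest mean of the 26 members (0.047), with 0.075 in R, 0.065 in weak IR, 0.055 in Mix1, 0.033 in NC and 0.005 in strong IR.

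Targets that both factors are known to induce had a median rho of 0.065 in NC, 0.051 in R, 0.114 in weak IR, 0.124 in strong IR and 0.122 in Mix1, above that of the p53 list in each population but Mix1. Of 5 compared, 1 reached 0.1 in NC, 1 in R, 3 in weak IR, 3 in strong IR and 4 in Mix1. The highest were DDIT4, an inhibitor of mTORC1, with a mean of 0.15, and BBC3, which encodes the pro-apoptotic protein PUMA, with 0.11. Other stress programmes held few such genes. In the aminoacyl-tRNA synthetases 1 of 12 reached 0.1, in strong IR only, and in the ER chaperones 0 of 10 in any population. Of 9 NRF2 targets 1 or 2 did, FTH1 among them in each population.

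**Figure D3:**
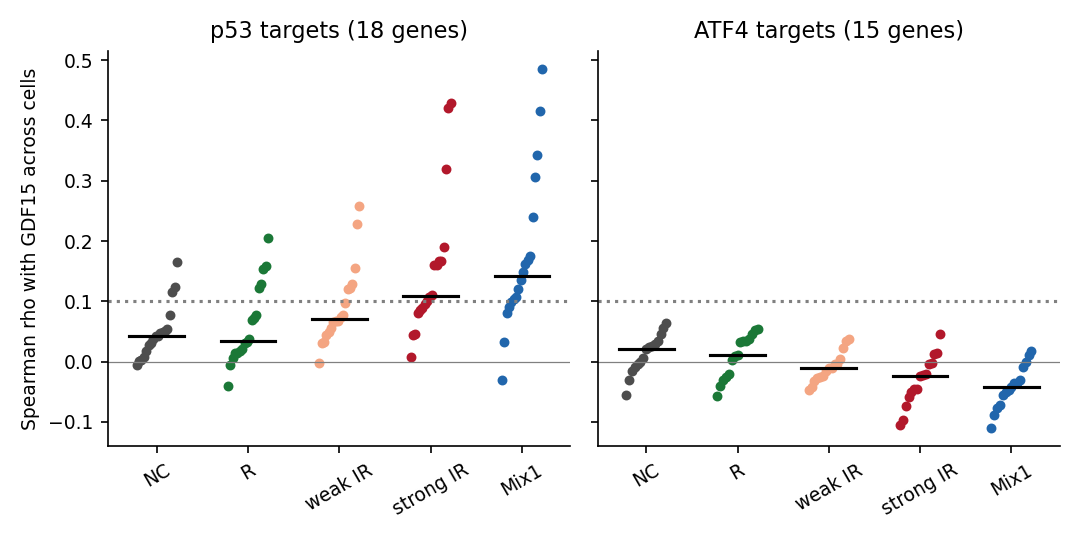
Spearman's rho with GDF15 from cell to cell (vertical axis) for each compared member of the p53 list and of the ATF4 list, 1 point per gene, by population, in cells thinned to 5000 UMIs. Median rho goes from 0.043 in NC to 0.142 in Mix1 for the p53 list and from 0.020 to -0.042 for the ATF4 list.

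Summed lists showed the same contrast between the pathways. The sum of p53 targets per cell correlated with GDF15 at 0.16 in NC, 0.21 in R, 0.30 in weak IR, 0.53 in strong IR and 0.55 in Mix1. The sum of ATF4 targets gave 0.050, 0.021, -0.005, -0.077 and -0.129. The sum of NRF2 targets, FTH1 among them, gave 0.14, 0.22, 0.19, 0.20 and 0.35, near the p53 sum in NC and R and below it elsewhere. At a fixed ATF4 sum (partial rank correlation) the p53 sum kept 0.17, 0.22, 0.30, 0.52 and 0.54, whereas at a fixed p53 sum the ATF4 sum had 0.064, 0.057, 0.028, 0.015 and -0.012. At a fixed G2 and M sum the p53 sum had 0.16, 0.20, 0.25, 0.37 and 0.35, lower in the irradiated populations than without it. RPS27L made up 18.7% to 23.5% of the p53 sum, SFN 17.4% to 24.1% and CDKN1A 8.28% to 16.9%. Without CDKN1A the p53 sum still gave 0.14 in NC and 0.53 in Mix1, and without CDKN1A and SFN it gave 0.42 in strong IR. Without RPS27L, whose counts are less certain, it gave 0.14 in NC, 0.21 in R, 0.27 in weak IR and 0.54 in strong IR and in Mix1. With Pearson residuals the p53 sum had 0.34 in NC, 0.64 in R, 0.57 in weak IR, 0.49 in strong IR and 0.54 in Mix1, so that the order of the populations changed. Both sums carried variance beyond counting, 51.3% to 86.9% of the variance of the p53 sum and 36.1% to 55.6% of that of the ATF4 sum, and the ATF4 sum averaged 7.10 to 11.4 UMIs per cell.

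Cells were then divided into tertiles of the p53 sum and, separately, into tertiles of the ATF4 sum. In strong IR the 9 resulting groups ran from 482 to 1676 CPM of GDF15 and in Mix1 from 294 to 1363 CPM. From the lowest to the highest p53 tertile GDF15 was 2.83, 3.21 and 3.29 times higher in strong IR within the low, middle and high ATF4 tertiles, and 4.29, 4.56 and 3.91 times higher in Mix1. In weak IR these folds were 3.53, 2.70 and 2.42, in R 3.23, 3.23 and 1.91, and in NC 1.90, 1.57 and 1.82. The step along the p53 sum was present in each ATF4 tertile of every population. From the lowest to the highest ATF4 tertile the folds within the 3 p53 tertiles were 0.850, 1.24 and 0.986 in strong IR, 1.12, 0.971 and 1.02 in Mix1, 1.28, 1.19 and 0.878 in weak IR, 1.31, 1.66 and 0.769 in R, and 1.17, 1.27 and 1.12 in NC. In these folds the step along the ATF4 sum was smaller than any step along the p53 sum in the same population. Its direction changed beyond counting error between p53 tertiles in R, weak IR and strong IR. In NC all 3 intervals included 1, and in Mix1 only that of the low p53 tertile excluded it. The 1.24 of strong IR was 1.01 and the 1.27 of NC was 0.956 with another random draw. Without CDKN1A in the p53 list the 1.27 of NC was 1.66. The p53 step of NC in the middle ATF4 tertile was at most 1.57 in any of these settings, so the contrast did not hold there.

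**Figure D4:**
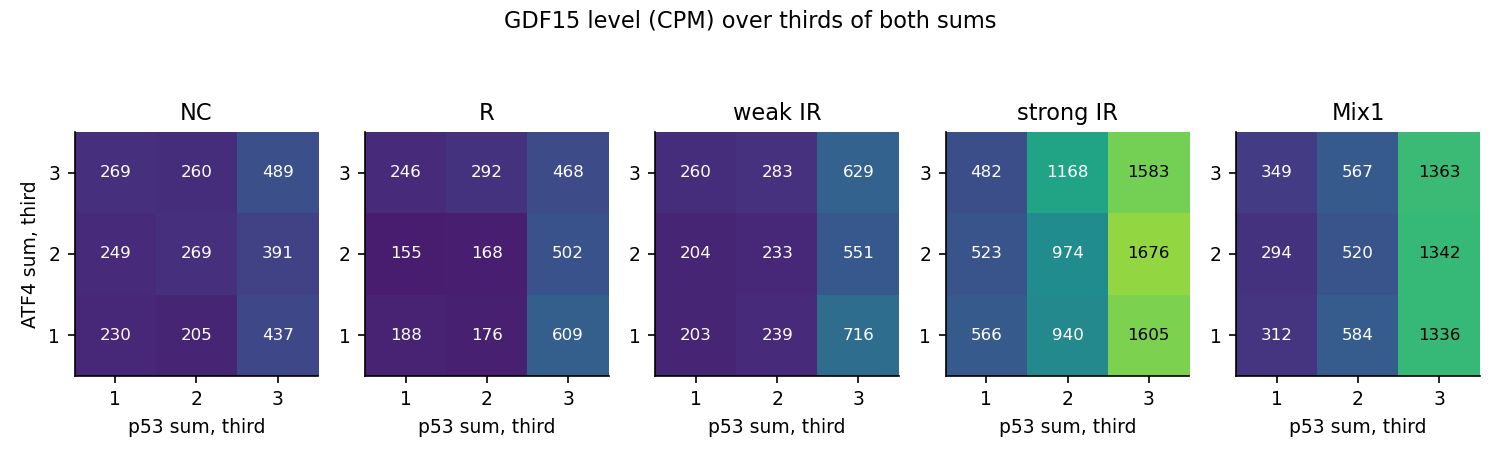
GDF15 level in CPM for cells grouped by tertile of the p53 target sum and tertile of the ATF4 target sum, 1 panel per population, from cells thinned to 5000 UMIs. The level changes along the p53 sum, from 522 to 1676 CPM in the middle ATF4 tertile of strong IR, and less along the ATF4 sum.

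The cells richest in GDF15 were compared with the cells without it. Groups were defined by GDF15 UMIs per 5000, after the values were seen, so that what follows describes other genes in cells picked for GDF15. Cells with over 10 UMIs numbered 5 in NC, 13 in R, 111 in weak IR, 257 in strong IR and 764 in Mix1. The p53 sum in weak IR was 2115 CPM in cells at 0, then 2358, 3000, 4612 and 7141 CPM in cells with 1 to 2, 3 to 5, 6 to 10 and over 10 UMIs. The ATF4 sum in the same groups was 1744, 1778, 1785, 1715 and 1724 CPM. The p53 sum was higher at each step, while the ATF4 sum stayed within a narrow range. Over 10 UMIs against 0, the p53 sum was 3.20 times higher in R, 3.38 times in weak IR, 2.29 times in strong IR and 2.68 times in Mix1, and the ATF4 sum was 0.921, 0.989, 0.845 and 0.887 times. The sum of G2 and M genes was 0.385, 0.277, 0.219 and 0.165 times.

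**Figure D5:**
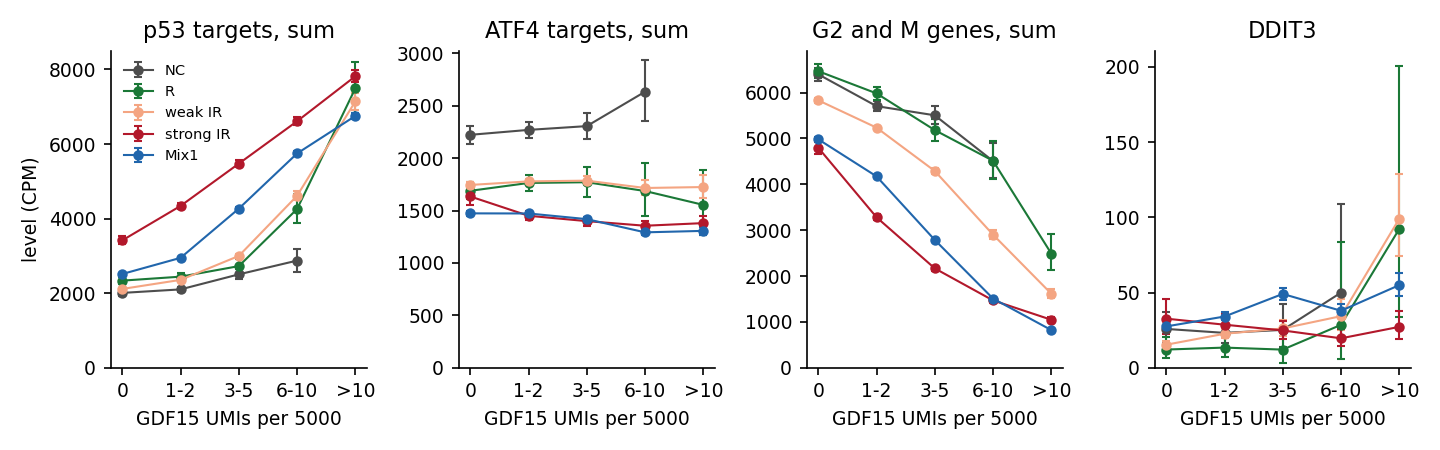
Summed level in CPM of the p53 list, the ATF4 list and the G2 and M list, and level of the single gene DDIT3 (vertical axes), in cells grouped by GDF15 UMIs per 5000 (horizontal axis), 1 line per population. Groups under 10 cells are left out. In weak IR the p53 sum goes from 2115 to 7141 CPM and the ATF4 sum from 1744 to 1724 CPM between cells at 0 and cells over 10 UMIs.

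Single genes differed in how far they moved with GDF15. CDKN1A stood at 2185 CPM in the 13 R cells with over 10 GDF15 UMIs and at 137 CPM in R cells without any, a ratio of 15.9 (12.5 to 20.2), and in weak IR at 1413 against 136 CPM, a ratio of 10.4 (9.46 to 11.3). The ratio was 3.55 (3.20 to 3.96) in strong IR, where cells without GDF15 already held 414 CPM of CDKN1A. TP53I3 was 10.2 times higher in weak IR and 7.03 times in Mix1. ASNS was 0.848 times in weak IR (0.589 to 1.19) and 0.664 times in Mix1 (0.538 to 0.814). MKI67, the proliferation marker, was 0.305 times in weak IR and 0.119 times in Mix1.

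By mean rho DDIT3 (0.047) stood close to SLC38A2 (0.039), another ATF4 target. DDIT3 was among the few ATF4 targets compared singly in these groups, and in some populations it moved with GDF15 where the summed list did not. In weak IR it stood at 99.1 CPM in cells with over 10 GDF15 UMIs and at 15.4 CPM in cells without any, a ratio of 6.45 (4.63 to 8.87), and in Mix1 at 55.0 against 27.5 CPM, a ratio of 2.00 (1.66 to 2.40). In R the ratio was 7.60 (2.37 to 21.4) on 6 UMIs of DDIT3. In strong IR it was 0.833 (0.505 to 1.38), so no difference was detectable there at this depth. Taken from the other side, cells with a DDIT3 UMI held 1.60 times the GDF15 of other cells in weak IR (1.51 to 1.70), 1.33 times in Mix1 (1.29 to 1.37), 1.32 times in NC (1.11 to 1.57), 1.81 times in R (1.44 to 2.24) and 1.11 times in strong IR (1.04 to 1.18). Within the low, middle and high p53 tertiles the ratio was 1.41, 0.965 and 1.62 in weak IR and 1.29, 1.33 and 1.09 in Mix1. It was 0.886, 0.961 and 1.93 in NC, 1.88, 0.615 and 2.76 in R, and 1.19, 1.15 and 1.08 in strong IR. The relation with DDIT3 was therefore present in the low p53 tertile of each population but NC. No higher GDF15 was detected in the low tertile of NC or in the middle tertiles of NC, R and weak IR. TRIB3, a pseudokinase induced by ATF4 and CHOP, gave 1.26 in NC, 1.41 in R, 1.20 in weak IR, 0.868 in strong IR and 0.989 in Mix1 by the same comparison.

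Levels of the same lists were also compared between populations. A gene counted as higher or lower than in NC past a ratio of 1.5 in either direction, among genes with 10 CPM in either population. No interval entered this rule. In strong IR 29 of 37 measured p53 targets were higher and 1 was lower, where 9.92% of all genes were higher and 15.4% lower. CDKN1A was 5.09 times NC there (918 against 180 CPM) and SFN 3.42 times (1283 against 376 CPM). Of 26 measured ATF4 targets 0 were higher and 14 were lower in strong IR, while all 7 shared targets were higher. Median log2 ratios were 0.90 for the p53 list and -0.71 for the ATF4 list. GDF15 itself, at 1.67, moved in the direction of the former in strong IR.

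In weak IR 4 of 36 p53 targets were higher and 0 lower, and 0 of 26 ATF4 targets were higher and 8 lower, where 0.709% of all genes were higher and 0.481% lower. In R 0 of 35 p53 targets were higher or lower and 9 of 26 ATF4 targets were lower, where 1.45% of all genes were higher and 1.83% lower. Most ATF4 targets measured in R and in weak IR did not pass the ratio, but the share that was lower lay far above that of all genes. The median log2 ratio of the ATF4 list was -0.44 in R and -0.35 in weak IR, against -0.04 and -0.03 over all genes. That of the p53 list was 0.20 in R and 0.28 in weak IR. The transcript of ATF4 stood at 171 CPM in NC and 109 CPM in strong IR. ATF3, a stress factor that both pathways induce, stood at 12.3 CPM in NC and 49.8 CPM in strong IR.

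The genes whose levels over the 5 populations were most like those of GDF15 were found by the root mean square difference of log2 ratios to NC over R, weak IR, strong IR and Mix1, among the same 3012 genes. They were CST3, which encodes cystatin C (0.12), FAM89B (0.13), the LIM protein FHL2 (0.14), BBC3 (0.14) and PNRC1 (0.16). CST3 had 241 CPM in NC, 257 in R, 289 in weak IR, 738 in strong IR and 542 in Mix1. Its rho with GDF15 from cell to cell was -0.017 in NC and 0.37 in strong IR, so no likeness over cells was detected in NC. Thinned cells held a mean of 1.55 GDF15 UMIs in NC and 5.25 in strong IR, so a weak relation is harder to detect in NC.

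The receptor and co-receptor of GDF15 were scarcely detected. GFRAL had 0 UMIs in every population and RET 0.766 to 1.48 CPM. FURIN, a protease that matures proteins of this family, stood at 8.68 to 14.4 CPM. Of 31 other TGF-beta family ligands listed, 3 reached 10 CPM in some population, namely BMP4 (55.4 CPM in NC and 99.6 in strong IR), TGFB1 (28.3 and 33.7) and BMP7 (7.37 and 13.5). The transcription factors EGR1 and KLF4, listed among regulators of GDF15, stood at 30.1 and 7.21 CPM in NC and at 18.1 and 10.3 CPM in strong IR. The upstream neighbour PGPEP1 stood at 19.0 to 32.6 CPM and the downstream neighbour LRRC25 at 0.043 CPM or less.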

How the data were processed

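Transcripts of single HCT116 cells were counted from their 3' ends in the droplet libraries Mix1 and Mix2. Cell Ranger (3.1.0 for Mix1 and 3.0.1 for Mix2, per the file headers) was run by the authors against GRCh38, and its UMI counts were deposited unnormalized, as whole numbers for each gene in each barcode. A 3' tag counts 1 molecule, so levels were not divided by transcript length. The submitters' processing notes also name Seurat 2.3, which was not used here. Of 3 deposited matrices the third covers all 6794880 barcodes of Mix2, and only its droplets without cells were used.

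Cells with at least 200 genes and under 10% mitochondrial UMIs were kept, as in the study. Hashtags assigned 9981 cells of Mix2, and droplets in which no tag made up 80% of the 3 tags, which include mixed droplets of different populations, were left out. No doublet caller was run, so doublets within a population and in Mix1 remain. UMIs were summed per population and divided by all gene UMIs (CPM, per 1e6). With 1 library per population no test was made. For correlations each cell was thinned to 5000 UMIs with a fixed seed. A gene was compared from cell to cell at 50 CPM in some population and between populations at 10 CPM, with limits of 0.1 on rho and of 1.5 on the ratio. The method was tested on simulated data before use.

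Named genes were the 5 highest and 3 lowest rho of each population, the 10 highest and 5 lowest mean rho, the 6 highest mean rho and 4 highest levels of the p53 and ATF4 lists, the 5 nearest profiles, fixed pathway genes and neighbours. Not every gene that this rule names is reported here. AREG, ASCC3, DDIT4 and the genes of cells rich in GDF15 were named after their values were seen. GDF15, its populations and all lists were chosen with earlier results of these data known. Groups by GDF15 UMIs, by tag8 count and by total UMIs, the removed barcodes, the DDIT3 and TRIB3 comparisons and the settings without CDKN1A and SFN, without RPS27L or without cells rich in GDF15 were chosen after values were seen.

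Alternatives changed the cell filter, the hashtag limits, the scaling (TMM of edgeR 4.0.16, size factors of DESeq2 1.42.0), the cell weights, the depth, the correlation, the gene filter and the lists. Scripts ran in Python 3.11.15 with numpy 2.4.6, scipy 1.17.1 and pandas 2.3.3, and R 4.3.3. Promoter sequences and positions came from RefSeq and GENCODE 44.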

Additional observations from a re-analysis of the deposited data

Results flagged for a closer look

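GDF15 was also counted in barcodes that the mitochondrial limit removes and that enter no comparison above, and it was higher there than in the kept cells of the same population. In barcodes with at least 10% mitochondrial UMIs it stood at 763 CPM in NC (59 barcodes, 2.43 times the kept cells), 735 CPM in R (97 barcodes, 2.22 times), 1164 CPM in weak IR (1118 barcodes, 2.81 times), 1428 CPM in strong IR (506 barcodes, 1.42 times) and 1235 CPM in Mix1 (1389 barcodes, 1.52 times). In these barcodes CDKN1A was 3.96, 1.99, 2.72, 1.20 and 1.38 times its level in the kept cells in the same order, the p53 sum 1.85, 1.48, 1.72, 1.07 and 1.20 times, and the sum of G2 and M genes 0.543, 0.708, 0.392, 0.765 and 0.455 times. The part of the mitochondrial share in this result was not tested.

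Droplets of Mix2 without cells, 1467872 barcodes with at most 100 UMIs each, carried GDF15 at 493 CPM, above the 315 CPM of NC and the 331 CPM of R and below the 1004 CPM of strong IR. When this free RNA was subtracted at 5% of UMIs, strong IR stood at 1031 CPM and 3.37 times NC.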

How the results depend on the processing

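Of the values of the level 14 of 50 alternatives moved by less than counting error, of the ratios 22 of 58, of the shares without a UMI 8 of 20 and of the grouped folds 17 of 20. Counts of genes were held to a change of 1.5 times, and correlations of list sums to a change of 0.1. Within these limits lay 28 of 48 follower counts, 155 of 190 list values and 6 of 12 list counts between populations. A change of 0.1 is wide for the ATF4 sum, whose rho ran from -0.129 to 0.050. Among ratios whose interval excluded 1, only that of weak IR to NC turned its direction, at 0.993 without the cells richest in GDF15, while R to NC, whose interval included 1, went to either side. Without limits on genes or mitochondrial share, GDF15 stood at 333 CPM in NC, 379.6 in R, 498 in weak IR, 1068 in strong IR and 837 in Mix1, and the ratio was 1.14 for R to NC, 1.49 for weak IR to NC and 2.15 for strong IR to weak IR. With at least 1000 genes and under 5% mitochondrial UMIs, GDF15 stood at 282.5 CPM in NC, 663 in R, 518 in weak IR and 714 in Mix1, and the ratio was 2.35 for R to NC, 1.83 for weak IR to NC, 3.57 for strong IR to NC and 1.95 for strong IR to weak IR. The share of cells without a UMI was 32.6% in weak IR and 20.7% in Mix1, and a rho of 0.1 was reached by 314 genes in NC, 837 in R and 147 in weak IR, of 3012 compared. After thinning, these correlations rest on 153 cells of NC, 24 of R and 623 of weak IR. With 24 cells a rho of 0.1 is reached by many genes, so the counts for R under this filter say little. The p53 targets at 0.1 numbered 7 in NC, 8 in R and 12 in weak IR, and ATF4 targets at 0.1 numbered 1 in NC and 2 in R. The rank correlation of the p53 sum with GDF15 was 0.52 in R and 0.41 in strong IR. With the own tag at 95% or more of the tags, GDF15 stood at 342 CPM in NC, 579.6 in R, 407 in weak IR and 1037 in strong IR, and the ratio was 1.70 for R to NC, 1.19 for weak IR to NC, 3.03 for strong IR to NC, 2.55 for strong IR to weak IR and 2.38 for Mix1 to NC. With at least 5000 tag8 counts in strong IR, GDF15 stood at 1064 CPM in strong IR, and the ratio was 3.38 for strong IR to NC and 2.57 for strong IR to weak IR. Scaled by TMM factors (edgeR), GDF15 stood at 420.1 CPM in weak IR, 1029 in strong IR and 823 in Mix1, and the ratio was 1.38 for weak IR to NC and 3.38 for strong IR to NC. Scaled by size factors (DESeq2), GDF15 stood at 1033 CPM in strong IR, and the ratio was 2.51 for strong IR to weak IR. Without mitochondrial and ribosomal protein genes in the total, GDF15 stood at 447 CPM in NC, 482 in R, 595 in weak IR, 1493 in strong IR and 1214 in Mix1, and the ratio was 2.51 for strong IR to weak IR and 2.71 for Mix1 to NC. With equal weight per cell, GDF15 stood at 304 CPM in R, 525 in weak IR, 1036 in strong IR and 907 in Mix1, and the ratio was 0.972 for R to NC, 1.68 for weak IR to NC, 1.97 for strong IR to weak IR and 2.90 for Mix1 to NC. After subtraction of free RNA at 5% of UMIs, GDF15 stood at 1031 CPM in strong IR, and the ratio was 3.37 for strong IR to NC and 2.52 for strong IR to weak IR. Without the 5% of cells with the most UMIs, GDF15 stood at 290.4 CPM in R, 404 in weak IR, 1019 in strong IR and 801 in Mix1, and the ratio was 0.949 for R to NC and 2.52 for strong IR to weak IR. From cells thinned to 5000 UMIs, GDF15 stood at 315 CPM in R, 372 in weak IR, 1051 in strong IR and 741 in Mix1, and the ratio was 1.20 for weak IR to NC, 3.39 for strong IR to NC, 2.83 for strong IR to weak IR and 2.39 for Mix1 to NC. Without the cells that held at least 6 GDF15 UMIs per 5000, a setting chosen after the data were seen, the ratio was 0.814 for R to NC, 0.993 for weak IR to NC, 1.87 for strong IR to NC, 1.88 for strong IR to weak IR and 1.49 for Mix1 to NC, and rho of the p53 sum was 0.085 in R, 0.19 in weak IR, 0.38 in strong IR and 0.36 in Mix1, where the limit on GDF15 itself narrows its range. At 3000 UMIs per cell, the share of cells without a UMI was 49.9% in NC, 56.4% in R, 47.7% in weak IR, 19.1% in strong IR and 27.9% in Mix1, and a rho of 0.1 was reached by 37 genes in R, 21 in weak IR, 106 in strong IR, 156 in Mix1 and 1 in all 5 populations. The p53 targets at 0.1 numbered 7 in strong IR. At 8000 UMIs per cell, the share of cells without a UMI was 24.8% in NC, 25.6% in R, 22.5% in weak IR, 5.21% in strong IR and 9.51% in Mix1, and a rho of 0.1 was reached by 143 genes in NC, 253 in R, 80 in weak IR and 10 in all 5 populations. The p53 targets at 0.1 numbered 7 in NC and 9 in R, and ATF4 targets at 0.1 numbered 3 in NC. The rank correlation of the p53 sum with GDF15 was 0.31 in NC and 0.37 in R, and rho of the ATF4 sum was -0.12 in R. With Pearson residuals in place of thinned ranks, a correlation of 0.1 was reached by 52 genes in NC, 160 in R, 215 in weak IR and 20 in all 5 populations, and p53 targets at 0.1 numbered 12 in R and 14 in weak IR. The Pearson correlation of the residuals of the p53 sum and GDF15, without thinning, was 0.34 in NC, 0.64 in R and 0.57 in weak IR. That of the ATF4 sum was -0.081 in R. Down to 10 CPM, a rho of 0.1 was reached by 47 genes in NC and 124 in R, and p53 targets at 0.1 numbered 20 in strong IR and 21 in Mix1. With Pearson's correlation of log counts, a value of 0.1 was reached by 66 genes in weak IR and 10 in all 5 populations, and that of the p53 sum was 0.36 in R and 0.40 in weak IR. With another random draw, p53 targets at 0.1 numbered 3 in R, and ATF4 targets at 0.1 numbered 1 in R. The step along the ATF4 sum at a middle p53 sum was 1.01 in strong IR, and the step along the p53 sum at a middle ATF4 sum was 4.25 in Mix1. At a fixed G2 and M sum, rho of the p53 sum was 0.37 in strong IR and 0.35 in Mix1, and rho of the ATF4 sum was 0.044 in strong IR and -0.022 in Mix1. Without CDKN1A and SFN in the list, also chosen after the data were seen, rho of the p53 sum was 0.42 in strong IR. Without CDKN1A in the list, the step along the ATF4 sum at a middle p53 sum was 1.06 in strong IR. With no minimum level beyond 1 UMI, p53 targets higher than in NC numbered 2 in R and 10 in weak IR, and p53 targets lower than in NC numbered 4 in R. ATF4 targets higher than in NC numbered 2 in R, 4 in weak IR and 4 in strong IR. The cause of these shifts was not tested. No paired analysis was possible because each population came from 1 library and no replicate numbers were shared. Limits are the single library per population, the R population under stricter filters (29 or 44 cells), and the depth per cell, which leaves most genes below 1 UMI per cell. Leaving out replicates was not possible. Free RNA could be subtracted for Mix2 only, since droplets without cells of Mix1 were not used here. Whether depth, mitochondrial share or tag8 count accounts for any value was not tested.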

Other observations

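Cells with at least 6 GDF15 UMIs per 5000 were also compared with cells of at most 2 UMIs for all genes, again on groups picked by GDF15 after its values were seen. Beside p53 targets, a few genes of other kinds had the highest ratios. KRTAP2-3, a keratin-associated protein, was 12.5 times higher in R (7.55 to 20.6, 34 UMIs) and 2.48 times higher in Mix1. CPA4, a secreted carboxypeptidase, was 3.25 times higher in weak IR, 2.44 times in strong IR and 2.48 times in Mix1. SLC2A1, the glucose transporter GLUT1, was 2.21 times higher in strong IR and 2.50 times in Mix1, and the epithelial transcription factor ELF3 was 3.27 times higher in R and 2.10 times in strong IR. In NC, where 29 cells were high, NR1D1, a repressor of the circadian clock, was 2.65 times higher (1.59 to 4.19, 21 UMIs). The lowest ratios in irradiated cells belonged to mitotic genes, with MKI67 at 0.260 in strong IR and HMMR, a spindle-associated hyaluronan receptor, at 0.206 in Mix1.

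High cells and low cells were also compared in depth, mitochondrial share and tag count. Their median total was 7912 and 7410 UMIs in NC, 8642 and 7376 in R, 8067 and 7750 in weak IR and 11931 and 12426 in strong IR, and 12802 and 10842 in Mix1. The median mitochondrial share was 6.61% and 5.96% in NC, 7.75% and 7.09% in R, 6.98% and 6.56% in weak IR, 5.82% and 5.87% in strong IR and 4.71% and 3.84% in Mix1. The median tag8 count was 1833 and 1381 in weak IR and 7422 and 6349 in strong IR.

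Summed interferon-stimulated genes had a rho with GDF15 of 0.23 in strong IR and 0.16 in Mix1, and 0.02 in NC. Summed markers of epithelial identity had 0.34 in strong IR, 0.31 in Mix1 and 0.00 in NC. The keratins KRT8, KRT18 and KRT19 were the most abundant of these markers, and KRT19 had 0.42 in strong IR and 0.36 in Mix1. EPCAM went the other way, at -0.053 in strong IR and -0.123 in Mix1, and was the only compared member below 0 in both. Secreted factors of senescence had 0.22 in strong IR, 0.20 in Mix1 and 0.14 in NC.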
